A study of Mus musculus with 5 samples.

Results

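Fibroblast growth factors (FGFs) and their receptors were followed through the cell types of the mammary gland of ovariectomised mice. The 8 genes Fgf1, Fgf2, Fgf7, Fgf10, Fgf18, Fgfr1, Fgfr2 and Fgfr3 were taken by symbol from the gene list of the count matrices, which held 27998 genes, so that 5 ligands and 3 receptors were described. The question was which cells hold the ligand transcripts, with the stroma as the candidate source, and which hold the receptor transcripts, with the epithelium as the candidate receiver.

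Single-cell RNA was counted in 5 libraries, 1 library for each of 5 groups of BALB/cj females. All animals had lost their ovaries surgically, which models menopause, and all were treated for 1 week starting 20 weeks after surgery, so that the controls shared the ovariectomy with the treated groups. Hormones were injected daily into the peritoneum. OVX received the vehicle DMSO only, OVX_E2 received 17β-estradiol (E2) at 1 µg per animal per day, and OVX_E2_P4 received the same E2 with progesterone (P4) at 0.1 mg per animal per day. OVX_E2_PBDE and OVX_E2_P4_PBDE received these hormones together with polybrominated diphenyl ethers (PBDEs), flame retardants, in the food, while the other groups ate food with DMSO only. Per weight of food the congeners were BDE-47 at 7.1 mg/kg, BDE-153 at 0.9 mg/kg and BDE-100 at 0.4 mg/kg. The labels gave the age of all 5 groups as 30 weeks. The number of mice behind a library is not given in the sources used here, and since each group had a single library, treatments could not be compared against the variation between animals. The PBDE libraries carried adjacent library numbers apart from those of the other libraries, and a preparation batch or date is not given in the sources used here.

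The libraries held 2233 to 3536 barcodes and 19982067 to 42012988 unique molecular identifiers (UMIs, 1 for each captured transcript), with 3 to 15 barcodes shared by any pair of libraries. Each library was clustered on its own, and clusters were named from marker genes as fibroblast-like (886 to 2565 cells), basal-like (60 to 148), luminal hormone-sensing (L-Hor-like, 92 to 757), luminal alveolar (L-Alv-like, 32 to 577), proliferating epithelial (38 to 148 in 4 libraries, none in OVX), hematopoietic-like (37 to 162) and endothelial-like (27 to 72). Clusters that held the markers of both luminal lineages (163 to 492 cells), other than proliferating ones, were kept apart as mixed luminal. These mixed clusters were not counted as epithelial cells. Levels are given as UMIs of a gene per 1000000 UMIs of the cells of a type (CPM), and series of 5 values follow the order OVX, OVX_E2, OVX_E2_PBDE, OVX_E2_P4, OVX_E2_P4_PBDE. Proliferating epithelial clusters held the markers of both luminal lineages too. Their L-Hor markers summed to 2132 to 3576 CPM and their L-Alv markers to 2602 to 5834 CPM. They were counted as epithelial and as luminal cells. Fat cells were not represented, and the summed adipocyte markers stood at 0.846 to 5.39 CPM in the fibroblast-like cells. The 6 fibroblast markers served as a gauge of fibroblast RNA in the other types. All were detected in L-Hor-like cells, where they summed to 1107 to 2570 CPM against 20340 to 31510 CPM in fibroblast-like cells. Free RNA, doublets and own expression were not separated by this gauge.

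FGFs are secreted proteins that bind heparan sulfate on the cell surface and activate receptor tyrosine kinases on neighbouring cells. Alternative splicing of the receptors decides which ligands they bind. The IIIb form of FGFR2 is made by epithelial cells and answers FGF7 and FGF10, which mesenchymal cells release. FGF10 and this receptor form are needed for most of the embryonic mammary buds to form. FGF1 binds all FGF receptors, FGF2 prefers the mesenchymal IIIc forms, and FGF18 acts mainly through the IIIc forms and FGFR3. The counts came from the 3′ ends of transcripts and therefore did not separate the splice forms.

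On the mouse assembly GRCm38, the build of the counts under its name mm10, the GENCODE M21 annotation placed Fgf7 at chr2:126034658-126091185 on the plus strand, Fgf10 at chr13:118669791-118792115 on the plus strand, Fgf18 at chr11:33117430-33147400 on the minus strand and Fgf2 at chr3:37348346-37410108 on the plus strand. Fgfr1 lies at chr8:25513654-25575718 on the plus strand, Fgfr2 at chr7:130162451-133123350 on the minus strand and Fgfr3 at chr5:33721674-33737068 on the plus strand. All 8 genes are protein-coding. The 250 bases before the start of transcription are shown for the 3 ligands with the largest excess in fibroblast-like cells and for Fgfr2, the receptor with the largest excess in epithelial cells, because these 4 genes carried the contrast between source and receiver. The sequences are those of RefSeq on GRCm38.p6, written 5′ to 3′ on the strand of the gene, before the start of transcription that RefSeq gives, at chr2:126034408-126034657 for Fgf7, chr13:118714449-118714698 for Fgf10, chr11:33147401-33147650 for Fgf18 and chr7:130266809-130267058 for Fgfr2. The Fgf10 and Fgfr2 windows lie inside the gene spans above because GENCODE also holds transcripts that start further upstream, and its transcripts with the longest coding sequence start at position 118714699 for Fgf10 and 130266191 for Fgfr2. Capitals mark a match to GGGCGG, the core of the GC box, on either strand.
Fgf7: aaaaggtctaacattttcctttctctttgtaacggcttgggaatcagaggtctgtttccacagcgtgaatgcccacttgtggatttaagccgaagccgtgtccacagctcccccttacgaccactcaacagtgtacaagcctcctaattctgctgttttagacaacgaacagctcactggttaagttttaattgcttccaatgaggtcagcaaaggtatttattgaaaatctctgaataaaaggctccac
Fgf10: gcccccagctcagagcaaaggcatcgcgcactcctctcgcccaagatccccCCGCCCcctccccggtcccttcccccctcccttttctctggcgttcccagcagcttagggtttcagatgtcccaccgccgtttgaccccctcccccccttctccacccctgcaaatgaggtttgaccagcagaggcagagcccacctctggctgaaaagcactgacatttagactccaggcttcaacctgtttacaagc
Fgf18: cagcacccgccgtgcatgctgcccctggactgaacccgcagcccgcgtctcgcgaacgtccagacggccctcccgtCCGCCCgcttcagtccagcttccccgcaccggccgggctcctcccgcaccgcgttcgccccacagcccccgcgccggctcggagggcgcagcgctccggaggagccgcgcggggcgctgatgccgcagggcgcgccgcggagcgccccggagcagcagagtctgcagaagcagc
Fgfr2: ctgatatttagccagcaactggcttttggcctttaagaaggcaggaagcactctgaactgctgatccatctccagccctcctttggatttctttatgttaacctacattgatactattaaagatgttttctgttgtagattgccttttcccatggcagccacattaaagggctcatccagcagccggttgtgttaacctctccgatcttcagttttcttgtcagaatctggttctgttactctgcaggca
These windows differed in base composition. G and C made up 77.2% of the Fgf18 window, 61.2% of the Fgf10 window, 44.0% of the Fgfr2 window and 43.6% of the Fgf7 window, against a median of 52.4% over 32851 RefSeq promoter windows of that length. The GC box core occurred in the Fgf10 and Fgf18 windows and in 32.7% of all windows. Neither TATAAA (12.4% of all windows), the estrogen receptor palindrome of GGTCA and TGACC spaced by 3 bases (0.0639%) nor the AP-1 site TGANTCA (6.75%) occurred in the 4 windows on either strand. The matches are descriptions of these letters only.

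Fgf7, Fgf10, Fgf2 and Fgf18 were fibroblast genes in every library. Fgf7, the keratinocyte growth factor, stood in fibroblast-like cells at 72.7, 56.7, 49.8, 49.7 and 44.5 CPM, and in epithelial cells at 7.09, 2.70, 2.20, 1.89 and 2.70 CPM. The ranges did not overlap. Of its 2778 UMIs, 91.4% fell in fibroblast-like cells, which held 30.6% of all UMIs. After each cell was thinned to 3000 UMIs, 10.8 to 18.5% of fibroblast-like cells had a Fgf7 UMI (16.9 to 30.3% without thinning), against 0.264 to 1.15% of L-Hor-like cells (1.72 to 5.43% without thinning), with a median depth of 4252 to 7031 UMIs per fibroblast-like cell and 5543 to 10452 per L-Hor-like cell.

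Fgf10, which drives the outgrowth of mammary buds and lungs, stood at 26.3, 21.5, 16.7, 19.8 and 20.0 CPM in fibroblast-like cells, and at 7.80, 1.27, 1.26, 1.03 and 2.54 CPM in epithelial cells. Fgf18, known from bone and lung growth, had 92.8% of its 978 UMIs in fibroblast-like cells, where the libraries held 25.3, 20.9, 14.8, 15.9 and 30.5 CPM, while epithelial cells held 0.286 to 1.01 CPM. Both genes kept every fibroblast value above every epithelial value. Fgf2, or basic FGF, which lacks a signal peptide and leaves cells by an unconventional route, stood at 28.0 to 39.3 CPM in fibroblast-like cells and 2.62 to 7.09 CPM in epithelial cells. The Fgf2 locus overlaps the genes Nudt6 (69 to 183 UMIs per library) and Fgf2os (2 to 13 UMIs) on the opposite strand, and whether the counting used strand is not given in the sources used here, so that its count is less certain than the others.

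These contrasts were tested with edgeR's quasi-likelihood test on the summed counts of fibroblast-like and epithelial cells with the library as a block, and p-values were adjusted over all 12496 genes tested by the Benjamini-Hochberg method. Fibroblast-like cells exceeded epithelial cells by a log2 fold change of 5.08 (SE 0.19, adjusted p = 9.59e-09) for Fgf18, 4.44 (SE 0.14, adjusted p = 4.47e-09) for Fgf7, 3.66 (SE 0.25, adjusted p = 4.79e-07) for Fgf10 and 3.16 (SE 0.13, adjusted p = 1.84e-08) for Fgf2. In all, 8 of 8 members passed an adjusted p of 0.05, 5 of them higher in fibroblast-like cells, in a contrast in which 70.6% of all genes tested passed (35.3% in either direction), so that passing alone was common. The median log2 fold change was 2.32 over the members and -0.02 over all genes. The 5 libraries differed in treatment and served as the replicates, so the p-values measure the spread between these libraries.

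Fgf1, at chr18:38838673-38929472 on the minus strand, had the opposite pattern among the ligands. It stood at 1.24, 2.56, 1.13, 2.85 and 1.00 CPM in fibroblast-like cells, and at 29.1, 8.69, 9.27, 9.95 and 10.9 CPM in epithelial cells. Fibroblast-like cells were lower by 2.74 on the log2 scale (fitted value -2.74, SE 0.33, adjusted p = 3.87e-05, edgeR). Within the epithelium, basal-like cells had the highest levels, with 54.2, 32.7, 38.0, 47.1 and 43.2 CPM. These lay above every L-Hor-like value (3.83 to 23.3 CPM) and every L-Alv-like value (4.30 to 11.2 CPM). Basal-like cells held 24.5% of the 896 Fgf1 UMIs and 3.64% of all UMIs. Of the 505 epithelial Fgf1 UMIs, 220 lay in basal-like and 285 in luminal cells, and mixed luminal barcodes held a further 297. After thinning, 10.0 to 16.9% of basal-like cells had a Fgf1 UMI (25.0 to 43.8% without thinning, median depth 5588 to 11666 UMIs), against 0.226 to 0.641% of fibroblast-like cells (0.451 to 1.69% without thinning). Basal-like cells were 60 of 184, 71 of 841, 83 of 933, 148 of 1582 and 64 of 824 epithelial cells. The part of this makeup in the epithelial Fgf1 levels was not tested.

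**Figure D1:**
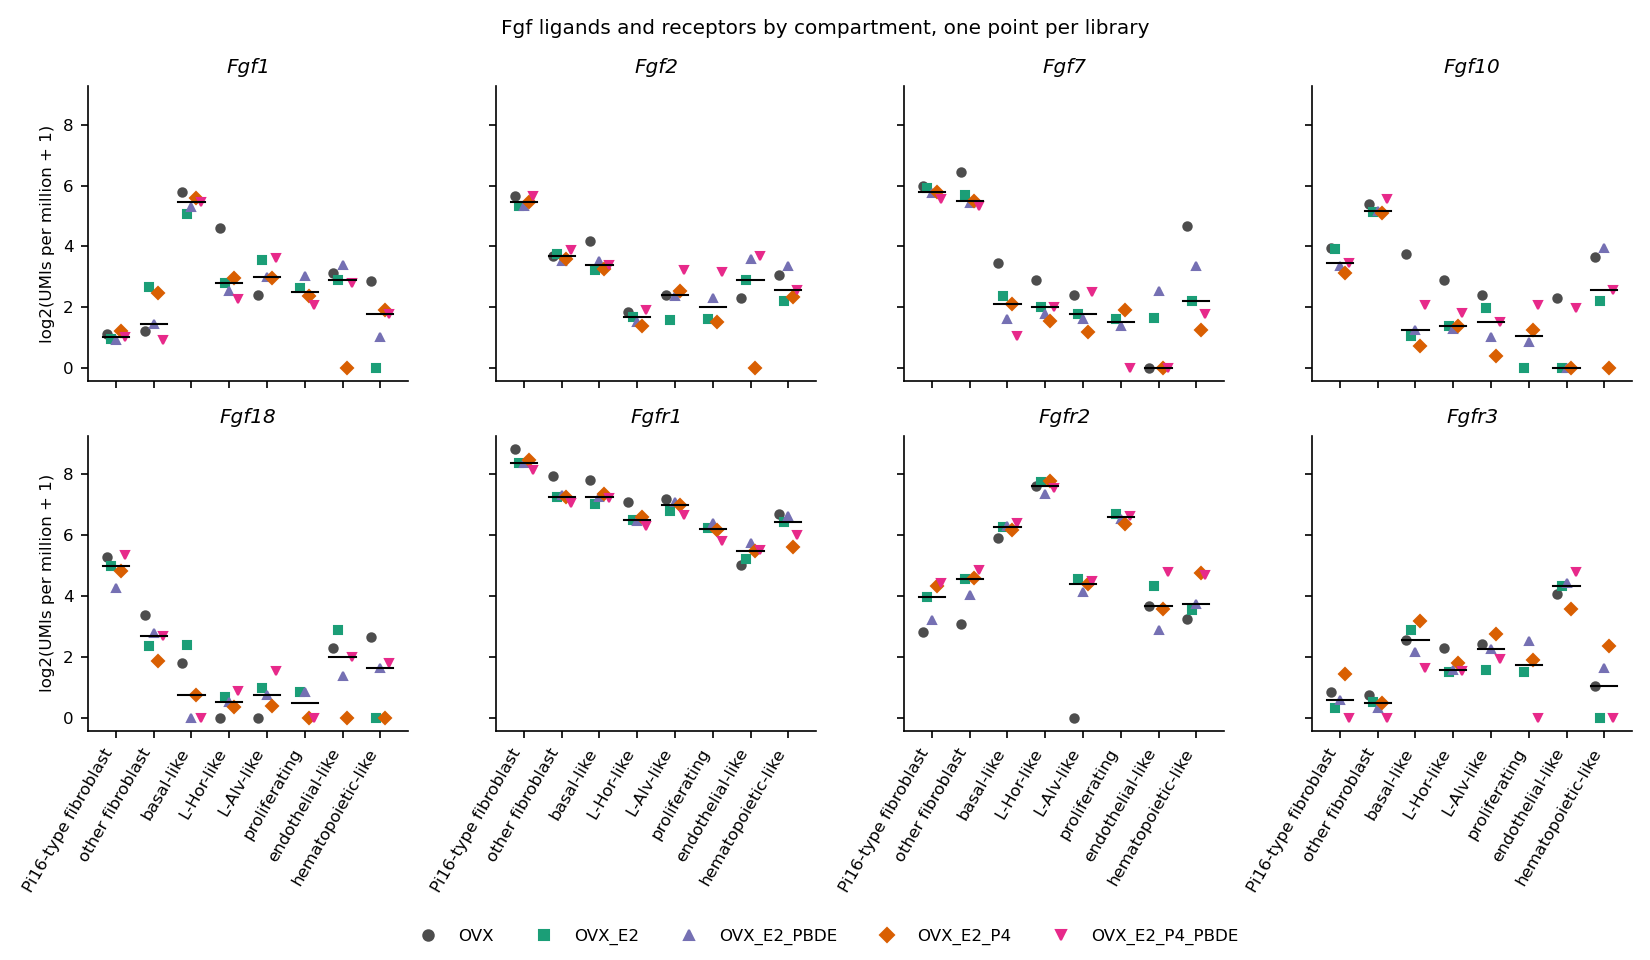
Levels of the 8 genes by cell type on a log2(CPM + 1) axis, with 1 point for each library and a bar at the median of the libraries. By the medians, Fgf2, Fgf7, Fgf10 and Fgf18 are highest in the fibroblast-like subsets, Fgf1 in basal-like, Fgfr2 in L-Hor-like and Fgfr3 in endothelial-like cells. In the other fibroblast-like cells the Fgf2 range overlaps that of basal-like cells, and the Fgf18 range that of endothelial-like cells.

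The low ligand levels outside the fibroblasts were set against the fibroblast markers in the same cells. Over all libraries together, the 6 fibroblast markers stood in L-Hor-like cells at 3.85 to 7.20% of their fibroblast level. Fgf7 stood there at 4.51% and Fgf18 at 2.24% of the fibroblast level, within and under the range of the markers. Fgf10 stood at 8.73% and Fgf2 at 6.30%. In basal-like cells the markers stood at 3.98 to 5.33%, while Fgf2 stood at 31.0%, Fgf10 at 10.8%, Fgf7 at 5.63% and Fgf18 at 5.55%. These basal-like values rest on 52 UMIs of Fgf2, 12 of Fgf10 (5 of them from OVX), 17 of Fgf7 and 6 of Fgf18. In OVX, which had the highest epithelial Fgf7, Fgf10 and Fgf2, the markers stood in L-Hor-like cells at a median of 9.80% of their fibroblast level. The medians were 2.99 to 4.82% in the other libraries. Basal-like cells were 60 of the 184 epithelial cells of OVX and held 7 of its 10 epithelial Fgf2 UMIs. Neither the part of fibroblast RNA nor that of this makeup in the epithelial ligand levels of OVX was tested.

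The receptors divided between stroma, luminal epithelium and vessels. Fgfr1, the main receptor of mesenchymal cells, stood at 363, 267, 282, 258 and 239 CPM in fibroblast-like cells and at 163.0, 91.9, 105, 111 and 90.01 CPM in epithelial cells. Every fibroblast value lay above every epithelial value, with a log2 fold change of 1.48 (SE 0.08, adjusted p = 1.44e-07, edgeR). Epithelial Fgfr1 stood at 52.3% of its fibroblast level in basal-like cells, where the fibroblast markers reached 5.33% at most. The corresponding values were 41.8% against 4.51% in L-Alv-like cells, and 30.4% against 7.20% in L-Hor-like cells. After thinning, 50 to 62.8% of fibroblast-like cells had a Fgfr1 UMI (63.4 to 81.1% without thinning), against 6.82 to 18.5% of endothelial-like cells (20.7 to 33.3% without thinning). The order of the levels ran from fibroblast-like cells through basal-like cells (129 to 224 CPM), L-Alv-like cells (99.9 to 146 CPM) and L-Hor-like cells (77.7 to 136 CPM) to endothelial-like cells (31.1 to 52.3 CPM). The neighbours basal-like, L-Alv-like and L-Hor-like overlapped in their ranges, whereas fibroblast-like and endothelial-like cells lay outside them. Hematopoietic-like cells (47.4 to 102 CPM) overlapped the endothelial-like, L-Hor-like and L-Alv-like ranges. In hematopoietic-like cells the fibroblast markers stood at 17.6 to 20.4% of their fibroblast level over all libraries. The part of fibroblast RNA in this Fgfr1 level was not tested. Proliferating epithelial cells (54.5 to 82.8 CPM) overlapped the L-Hor-like range.

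Fgfr2, the receptor of Fgf7 and Fgf10, was highest in the hormone-sensing luminal cells. L-Hor-like cells held 195, 216, 164, 222 and 188 CPM, and the L-Alv-like cells held 0, 22.4, 16.5, 20.1 and 21.5 CPM. No L-Alv-like value came near an L-Hor-like value. Proliferating epithelial cells, whose clusters had the markers of both luminal lineages, held 81.8 to 103 CPM. Basal-like cells held 59.2 to 84.2 CPM, and these neighbours overlapped. Fibroblast-like cells held 6.62 to 22.5 CPM, a range that reached into those of L-Alv-like, hematopoietic-like (8.44 to 25.7 CPM) and endothelial-like cells (6.34 to 26.7 CPM). Fibroblast-like cells were below epithelial cells by a fitted log2 fold change of -2.99 (SE 0.19, adjusted p = 2.87e-07, edgeR). The thinned share of cells with a Fgfr2 UMI was 38.9 to 48.7% in L-Hor-like cells (62.4 to 84.5% without thinning), 0 to 7.32% in L-Alv-like cells (0 to 18.02%) and 2.03 to 6.77% in fibroblast-like cells (3.51 to 11.3%).

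Fgfr2 outside the L-Hor-like cells was set against the L-Hor markers in the same way. Over all libraries, Fgfr2 stood in L-Alv-like cells at 9.83% of its L-Hor-like level, and the 6 L-Hor markers stood there at 2.90 to 15.7%. In fibroblast-like cells Fgfr2 stood at 6.44% of its L-Hor-like level, against a median of 3.90% and a range of 1.54 to 77.0% for the L-Hor and epithelial markers. In basal-like cells it stood at 38.1%, where 9 of those markers (Epcam left out) stood at 5.87 to 30.2%. This did not hold in every library. In OVX_E2_P4_PBDE these markers reached 45.3%, and Fgfr2, at 84.2 CPM in basal-like and 188 CPM in L-Hor-like cells, lay below the highest marker.

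Fgfr3 was sparse, with 422 UMIs in all. Its highest levels lay in endothelial-like cells, with 15.6, 19.3, 20.6, 11.02 and 26.7 CPM, and none of these overlapped the basal-like (2.11 to 7.96 CPM), L-Alv-like (1.95 to 5.77 CPM), L-Hor-like (1.80 to 3.88 CPM) or fibroblast-like (0 to 1.07 CPM) range. Mixed luminal barcodes held 47.9% of the Fgfr3 UMIs and 31.15% of all UMIs, at 2.86 to 8.65 CPM. The endothelial-like values rest on 37 UMIs, 8.77% of the Fgfr3 UMIs, in clusters with 1.30% of all UMIs. These clusters also held the 6 pericyte markers at a sum of 818 to 1272 CPM, against at most 112 CPM in any other named type, and endothelial cells and pericytes were not separated. Fibroblast-like cells were below epithelial cells by a fitted log2 fold change of -2.43 (SE 0.33, adjusted p = 8.64e-05, edgeR). The 3 epithelial ranges overlapped each other.

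Inside the epithelium, 4 members had enough counts for the test of basal-like against luminal cells (8512 genes tested, 48.4% called), and 4 passed. Basal-like cells exceeded luminal cells in Fgf1 by a log2 fold change of 2.60 (SE 0.19, adjusted p = 1.28e-06, edgeR), in Fgf2 by 1.71 (SE 0.27, adjusted p = 0.000347) and in Fgfr1 by 0.69 (SE 0.11, adjusted p = 0.000328), each in 5 of 5 libraries. Fgfr2 was lower in basal-like cells in 5 of 5 libraries, with a fitted log2 fold change of -0.83 (SE 0.12, adjusted p = 0.000158). Fgf2 stood at 17.3, 8.43, 10.4, 8.63 and 9.47 CPM in basal-like cells and at 2.98, 2.11, 2.66, 2.94 and 4.49 CPM in luminal cells. It fell below the count filter, and was not tested, at a mitochondrial threshold of 5% or without the 20% of cells with the highest doublet score.

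Of the luminal lineages, L-Hor-like cells exceeded L-Alv-like cells in Fgfr2 by a log2 fold change of 3.29 (SE 0.13, adjusted p = 3.83e-13, edgeR), and 60.9% of the 10116 genes tested passed in this contrast. Fgfr1 was lower in L-Hor-like cells in 5 of 5 libraries (log2 fold change -0.49, SE 0.09, adjusted p = 0.000116). Fgf1 did not pass (-0.48, SE 0.26, adjusted p = 0.111) and was higher in L-Hor-like cells in 1 library, OVX. Without OVX its log2 fold change was -0.61 (adjusted p = 0.0247). The remaining 5 members had too few counts to be tested here, and Fgf2 and Fgfr3 passed where a looser filter let them in.

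The mixed luminal barcodes held 49.5% of all Fgfr2 UMIs and 31.1% of all UMIs. Their Fgfr2 level of 185, 143, 137, 142 and 159 CPM lay between those of both luminal lineages in 5 of 5 libraries. Their Fgfr1 level of 99.3 to 156 CPM overlapped both. Over the 4 comparisons between libraries 11 of 28 ratios were counted in them, 5 for E2 (15.8% of genes), 2 for P4 (7.05%), 1 for PBDEs under E2 (5.76%) and 3 for PBDEs under E2 and P4 (8.63%), a counted ratio being at least 1.5-fold with an exact 95% interval that left out 1. For E2 these were Fgf2 at 0.190, Fgf10 at 0.381, Fgf1 at 0.408, Fgfr3 at 0.437 and Fgf7 at 0.448, all lower in OVX_E2. The fibroblast markers stood in these barcodes at a median of 5.83% of their fibroblast level in OVX and 2.64% in OVX_E2. The part of fibroblast RNA in these ratios was not tested. In OVX, Fgf1 stood at 14.25 CPM in these barcodes and 1.24 CPM in fibroblast-like cells, and Fgfr3 at 8.65 and 0.728 CPM. When these clusters were added to the epithelial cells, 8 of 8 members again passed against fibroblast-like cells. Of all 13177 genes tested there, 4797 were higher and 4908 lower in fibroblast-like cells.

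The fibroblast-like cells were not alike in their FGF genes. Clusters with the markers Pi16, Anxa3, Dpp4, Cd55 and Sema3c, which mark adventitial-type fibroblasts, were compared with the other fibroblast-like clusters, a comparison added after the clusters had been seen. Fgf2 stood at 49.9, 39.2, 39.5, 43.1 and 48.9 CPM in Pi16-type cells and at 11.9, 12.4, 10.5, 10.97 and 13.7 CPM in the others. Fgf18 stood at 37.8, 30.5, 18.4, 27.6 and 40.0 CPM in Pi16-type cells and at 9.43, 4.15, 5.88, 2.65 and 5.46 CPM in the others. Both genes thus separated the subsets in 5 of 5 libraries without overlap, and Fgfr1 did so too, with 279.5 to 456 CPM against 133 to 244 CPM. The Fgfr1 range of the other fibroblast-like cells overlapped those of basal-like (129 to 224 CPM), L-Alv-like (99.9 to 146 CPM) and L-Hor-like cells (77.7 to 136 CPM). Their Fgf2 range overlapped those of basal-like (8.43 to 17.3 CPM) and endothelial-like cells (0 to 11.85 CPM). Their Fgf18 range overlapped those of basal-like (0 to 4.215 CPM) and endothelial-like cells (0 to 6.44 CPM).

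Fgf10 ran the other way. It stood at 14.4, 14.2, 9.21, 7.74 and 10.0 CPM in Pi16-type cells and at 41.4, 34.4, 35.3, 33.3 and 46.4 CPM in the other fibroblast-like cells, again without overlap. Among these other cells, Spon1-type clusters scored high for the markers Spon1, Tnc, Crabp1 and Postn. Fgf10 stood at 5.35 to 46.4 CPM in Spon1-type cells, a range that overlapped that of Pi16-type cells. The 46.4 CPM belongs to OVX_E2_P4_PBDE, where all 234 other fibroblast-like cells formed a single cluster that scored as Spon1-type. That cluster also had the highest score of its library for the markers Col15a1, Smoc2, Col4a1 and Penk. Pi16-type cells held more Fgf10 than Spon1-type cells in 1 library and less in 4. Fgf7 stood at 46.5 to 61.9 CPM in Pi16-type cells and 39.1 to 86.4 CPM in the others, higher in Pi16-type cells in 4 libraries and lower in OVX. In Spon1-type cells Fgf7 stood at 14.7 to 82.9 CPM, below Pi16-type cells in 4 libraries and above them in 1. Of both ligands of the epithelial Fgfr2 form, Fgf10 thus separated Pi16-type from other fibroblast-like cells and Fgf7 did not. The highest Fgf7 level, 86.4 CPM, lay in the other fibroblast-like cells of OVX.

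In the edgeR test of Pi16-type against other fibroblast-like cells (10213 genes tested, 41.3% called), 5 of the 6 members tested passed. The log2 fold changes were 2.37 for Fgf18 (SE 0.20, adjusted p = 1.45e-06), 1.99 for Fgf2 (SE 0.10, adjusted p = 2.55e-08), 1.15 for Fgfr1 (SE 0.08, adjusted p = 2.02e-07) and -1.67 for Fgf10 (SE 0.13, adjusted p = 6.48e-07). Fgfr2 passed at -0.44 (SE 0.13, adjusted p = 0.0183), and this call was lost in 4 alternatives, with adjusted p = 0.127 in DESeq2, 0.49 without the library block, 0.0676 without OVX_E2 and 0.0985 without OVX_E2_PBDE. Fgf7 did not pass at 0.16 (SE 0.14, adjusted p = 0.376), and without OVX it passed at 0.40 (adjusted p = 0.000831). The subsets differed in makeup between libraries, since in OVX_E2_P4_PBDE the other fibroblast-like cells all lay in 1 cluster, led by Col1a1, Col3a1 and Mfap4.

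**Figure D2:**
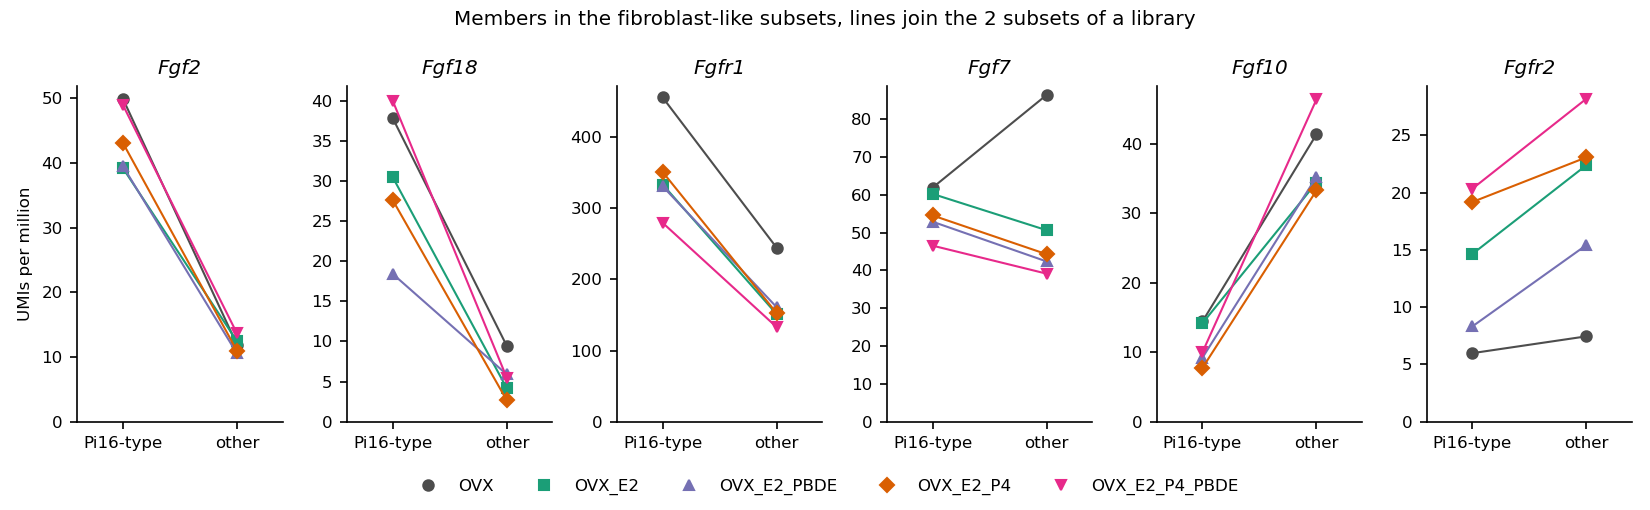
Level in CPM of 6 members in the Pi16-type and the other fibroblast-like cells, with a line joining both values of a library. Fgf2, Fgf18 and Fgfr1 fall and Fgf10 and Fgfr2 rise from the Pi16-type to the other cells in all 5 libraries, while Fgf7 rises in OVX and falls in the other 4.

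The wider pathway was counted from a list of 61 other genes. Of these, 43 had enough counts in the contrast of fibroblast-like with epithelial cells, 20 were higher, 15 were lower and 8 did not pass, against 35.3% of all genes tested in either direction and 70.6% in all. Their median log2 fold change was 0.17. Of 17 other FGF genes only 3 were tested, and Fgf3, Fgf6 and Fgf22 had 0 UMIs in all barcodes. Fgf16, a paracrine FGF, was higher in fibroblast-like cells (3.57, SE 0.36, 180 UMIs in all). Fgfr4 had 7 UMIs, and the co-receptors of the endocrine FGFs, Kl and Klb, had 2 and 1.

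Genes of heparan sulfate, the co-factor of FGFs, formed the largest tested group. Of 17 core proteins and enzymes, 10 were higher in fibroblast-like cells and 3 lower, beside 35.3% of all genes in either direction, and 4 did not pass, with a median log2 fold change of 1.33. Gpc3, a glypican, was higher by 4.45, Sulf1, a sulfatase that trims heparan sulfate outside the cell, by 4.16 and Gpc6, another glypican, by 3.68. Fgfbp1, which releases FGFs from heparan sulfate, was lower by a fitted -4.25 in fibroblast-like cells, and the edgeR adjusted p-values of these 4 genes were at or below 4.52e-06.

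Of 11 feedback regulators and targets, 5 were higher in fibroblast-like cells, 5 were lower and 1 did not pass, where 70.6% of all genes passed. The higher genes were Spry1 (1.17), Spry2 (1.09), Spry4 (0.80), Spred1 (0.93) and Il17rd (2.66), inhibitors of receptor signalling. Dusp6, a phosphatase that FGF signalling induces and that inactivates ERK, was lower at -3.08 and Ccnd1, cyclin D1, at -3.08. Etv4 (-2.25), Etv1 (-1.32) and Spred2 (-0.63) were lower too. Esrp1 and Esrp2 are splicing factors that set the epithelial IIIb form of Fgfr2. Both were lower in fibroblast-like cells, at -3.57 (SE 0.18) for Esrp1 and -2.62 (SE 0.25) for Esrp2. Rbfox2, also listed as a splicing regulator of Fgfr2, was higher there at 0.97 (SE 0.12). Between the luminal lineages none of these 3 splicing factors passed, with log2 fold changes of 0.01 for Esrp1, -0.05 for Esrp2 and 0.25 for Rbfox2.

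Within the epithelium, 34 of the 61 genes were tested between basal-like and luminal cells, where 21 were higher in basal-like cells (24.8% of all genes tested) and 3 lower (23.6%). Dusp6 stood at a mean of 259 CPM in basal-like and 70.0 CPM in luminal cells (log2 fold change 1.89, SE 0.11, adjusted p = 1.88e-07, edgeR). Between the luminal lineages 37 were tested, 5 were higher in L-Hor-like cells (30.4% of all genes tested) and 16 lower (30.5%), and the lower ones included Dusp6 (-1.85, adjusted p = 8.11e-11) and Fgfbp1 (-3.70, adjusted p = 8.79e-08). The 8 feedback regulators and targets tested there went both ways. Spry2, a Sprouty inhibitor of receptor signalling (-3.18), was lower in L-Hor-like cells, as was Dusp6. Etv4, a transcription factor that FGF signalling induces (1.93, adjusted p = 1.32e-05), and Spred2 (0.64, adjusted p = 0.00187) were higher, and the remaining 4 did not pass. Between the fibroblast subsets 34 were tested, 8 were higher in Pi16-type cells (21.1% of all genes tested) and 14 lower (20.2%). Of the 10 feedback regulators and targets tested, 7 were lower in Pi16-type cells, 2 higher and 1 did not pass. Lower genes were Spry1 (-3.68, SE 0.16), Spry4 (-3.37, SE 0.26) and Dusp6 (-1.48, SE 0.26), with edgeR adjusted p-values at or below 0.000683. Spry2, at a mean of 140.0 CPM in Pi16-type and 86.0 CPM in the other cells (0.82, SE 0.11), and Ccnd1 (0.41, SE 0.13) were higher.

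**Figure D3:**
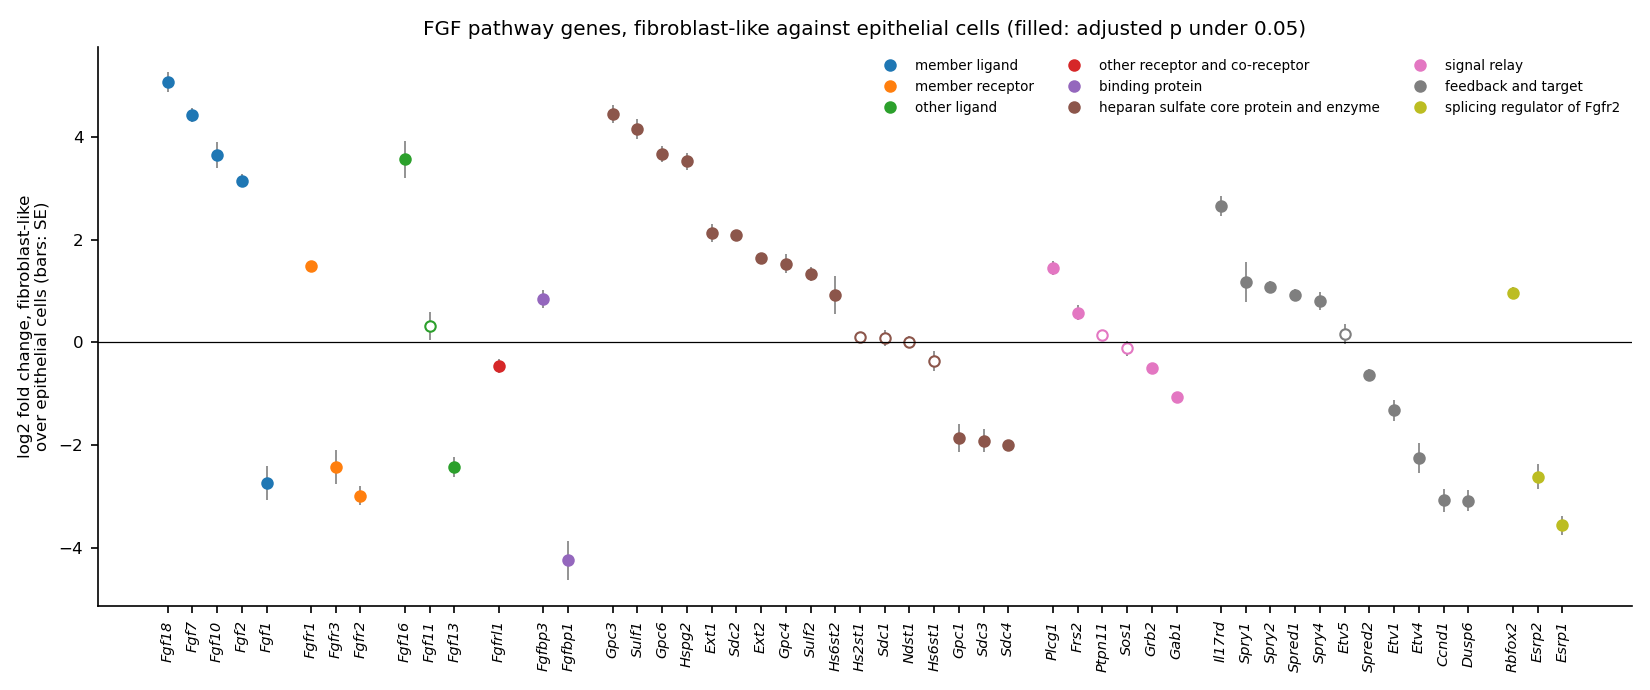
Fitted log2 fold change of fibroblast-like over epithelial cells for the 8 members and the 43 other pathway genes tested, ordered within each role, with bars for the SE and filled points for genes with an adjusted p under 0.05. Among the members Fgf18 lies highest at 5.08 and Fgfr2 lowest at -2.99, and 10 of 17 heparan sulfate genes lie above 0 with filled points.

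Levels in different libraries were compared as ratios. A ratio between libraries was counted when the gene had at least 20 UMIs over both, the ratio reached 1.5-fold and its exact 95% interval left out 1. These intervals, from a conditional binomial, cover counting error only, and comparisons that share a library are not independent. In fibroblast-like cells 4 of the 28 ratios with enough UMIs were counted over the 4 comparisons. For E2 (OVX_E2 over OVX), 1 of 7 members was counted, against 13.1% of all genes deep enough. Fgfr2 stood at 17.4 CPM in OVX_E2 and 6.62 CPM in OVX, a ratio of 2.64 (1.99 to 3.51). Fgf7 had a ratio of 0.781 (0.692 to 0.880), Fgfr1 of 0.737 (0.697 to 0.778) and Fgf10 of 0.819 (0.670 to 0.996), all under 1 and short of 1.5-fold.

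The ratios for E2 were also taken within the fibroblast subsets. In the other fibroblast-like cells 5 of 7 members were counted, against 17.5% of genes. Fgf1 had a ratio of 4.07 (1.57 to 11.3, on 13 and 8 UMIs), Fgfr2 of 3.01 (1.99 to 4.57), Fgfr1 of 0.618 (0.549 to 0.693), Fgf7 of 0.586 (0.477 to 0.715) and Fgf18 of 0.440 (upper bound 0.869, on 10 and 57 UMIs). In Pi16-type cells only Fgfr2 was counted, at 2.45 (1.65 to 3.67), against 10.1% of genes. The Fgf7 ratio in Pi16-type cells was 0.973 (0.833 to 1.14), and its counting interval did not overlap that of the other fibroblast-like cells. The other fibroblast-like cells differed in makeup between both libraries. Spon1-type cells were 107 of these 1254 cells in OVX and 172 of 334 in OVX_E2. The part of this makeup in the ratios of the other fibroblast-like cells, and in their contrast with Pi16-type cells, was not tested.

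The L-Hor and epithelial markers moved in the same direction as Fgfr2 in these cells. In fibroblast-like cells they stood at a median of 2.05% of their L-Hor-like level in OVX and 4.31% in OVX_E2, and Fgfr2 at 3.39% and 8.07%. L-Hor-like cells numbered 92 in OVX and 476 in OVX_E2. The part of L-Hor RNA in the Fgfr2 ratio was not tested.

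P4 (OVX_E2_P4 over OVX_E2) gave 0 counted members in fibroblast-like cells, against 7.92% of genes. In Pi16-type cells 1 member was counted, Fgf10 at 0.546 (0.322 to 0.897), on 23 and 60 UMIs, against 8.55% of genes, and in the other fibroblast-like cells 0, against 7.11%. In all fibroblast-like cells the ratios of the 7 members with enough UMIs ran from 0.758 (0.574 to 0.996) for Fgf18 to 1.20 (0.924 to 1.57) for Fgfr2. PBDEs under E2 (8.08% of genes counted) gave Fgf1 at 0.441 (0.209 to 0.928), on 16 and 17 UMIs, and Fgfr2 at 0.594 (0.462 to 0.764). Without the 20% of cells with the highest doublet score the Fgf1 ratio was 0.499 and was not counted. The median of all genes in this comparison was itself -0.19 on the log2 scale. The L-Hor and epithelial markers moved with Fgfr2 here too, from a median of 4.31% of their L-Hor-like level in OVX_E2 to 3.07% in OVX_E2_PBDE, and Fgfr2 from 8.07% to 6.32%, and their part was not tested. In Pi16-type cells 3 members were counted (8.13% of genes), Fgfr2 at 0.568 (0.404 to 0.802), Fgf18 at 0.605 (0.480 to 0.763) and Fgf10 at 0.650 (0.465 to 0.915). In the other fibroblast-like cells 1 was counted (6.59% of genes), Fgf1 at 0.318 (0.107 to 0.857), on 7 and 13 UMIs.

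PBDEs under E2 and P4 (10.0% of genes counted) gave Fgf18 at 1.92 (1.45 to 2.56), from 15.9 CPM in OVX_E2_P4 to 30.5 CPM in OVX_E2_P4_PBDE. In Pi16-type cells (6.76% of genes counted) and in the other fibroblast-like cells (7.25%) 0 members were counted. The Fgf18 ratio was 1.45 (1.08 to 1.95) in Pi16-type cells, and these cells made up 652 of the 886 fibroblast-like cells of OVX_E2_P4_PBDE and 503 of the 948 of OVX_E2_P4. At a mitochondrial threshold of 5%, where 329 cells of OVX_E2_P4 stayed unnamed, the Fgf18 ratio was 1.34 and no longer counted.

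In the named epithelial types 5 ratios were counted over the 4 comparisons. The shares of all genes counted for P4, PBDEs under E2 and PBDEs under E2 and P4 were 8.11%, 8.2% and 10.1% in L-Hor-like cells, 7.74%, 8.08% and 7.75% in L-Alv-like cells and 9.29%, 15.8% and 15.7% in basal-like cells. Under E2, 18.3% of genes were counted in L-Hor-like cells and the median of all genes was -0.33 on the log2 scale. Fgf1 stood at 23.3 CPM in OVX and 5.99 CPM in OVX_E2, a ratio of 0.257 (0.139 to 0.490), on 18 and 30 UMIs. In OVX the 6 basal markers stood in L-Hor-like cells at a median of 0.401% of their basal-like level, while Fgf1 stood at 42.9% of its basal-like level. Fgfr1 had a ratio of 0.665 (0.536 to 0.830) in L-Hor-like cells and 0.573 (0.433 to 0.760) in basal-like cells, where 22.8% of genes were counted and the median of all genes was -0.13. The Fgfr1 ratio in L-Hor-like cells lay at the edge of 1.5-fold and was not counted at a clustering resolution of 1.0 (0.675) or a mitochondrial threshold of 5% (0.673). Fgfr1 was thus lower in OVX_E2 than in OVX in fibroblast-like, basal-like and L-Hor-like cells, each with an interval under 1. The fibroblast markers stood in L-Hor-like cells at a median of 9.80% of their fibroblast level in OVX and 4.05% in OVX_E2. In basal-like cells these medians were 10.1% and 4.16%. The part of fibroblast RNA in the Fgfr1 ratios of L-Hor-like and basal-like cells was not tested.

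Fgfr2 in L-Hor-like cells had a ratio of 1.11 (0.932 to 1.32) for E2 and 1.02 (0.948 to 1.11) for P4. With PBDEs it was 0.758 (0.698 to 0.825) under E2, where the median of all genes was -0.16 on the log2 scale, and 0.850 (0.777 to 0.930) under E2 and P4. In L-Alv-like cells Fgfr2 had 0 UMIs in the 32 cells of OVX, which allows up to 12.9 CPM, and 46 UMIs (22.4 CPM) in OVX_E2, a ratio whose lower limit is 1.36 (10.4% of genes counted). The L-Hor markers stood in L-Alv-like cells at a median of 2.44% of their L-Hor-like level in OVX and 9.02% in OVX_E2. The part of L-Hor RNA in this Fgfr2 ratio was not tested. Fgfr3 in L-Alv-like cells had a ratio of 2.96 (1.06 to 11.4) for P4, on 37 and 4 UMIs (7.74% of genes counted).

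**Figure D4:**
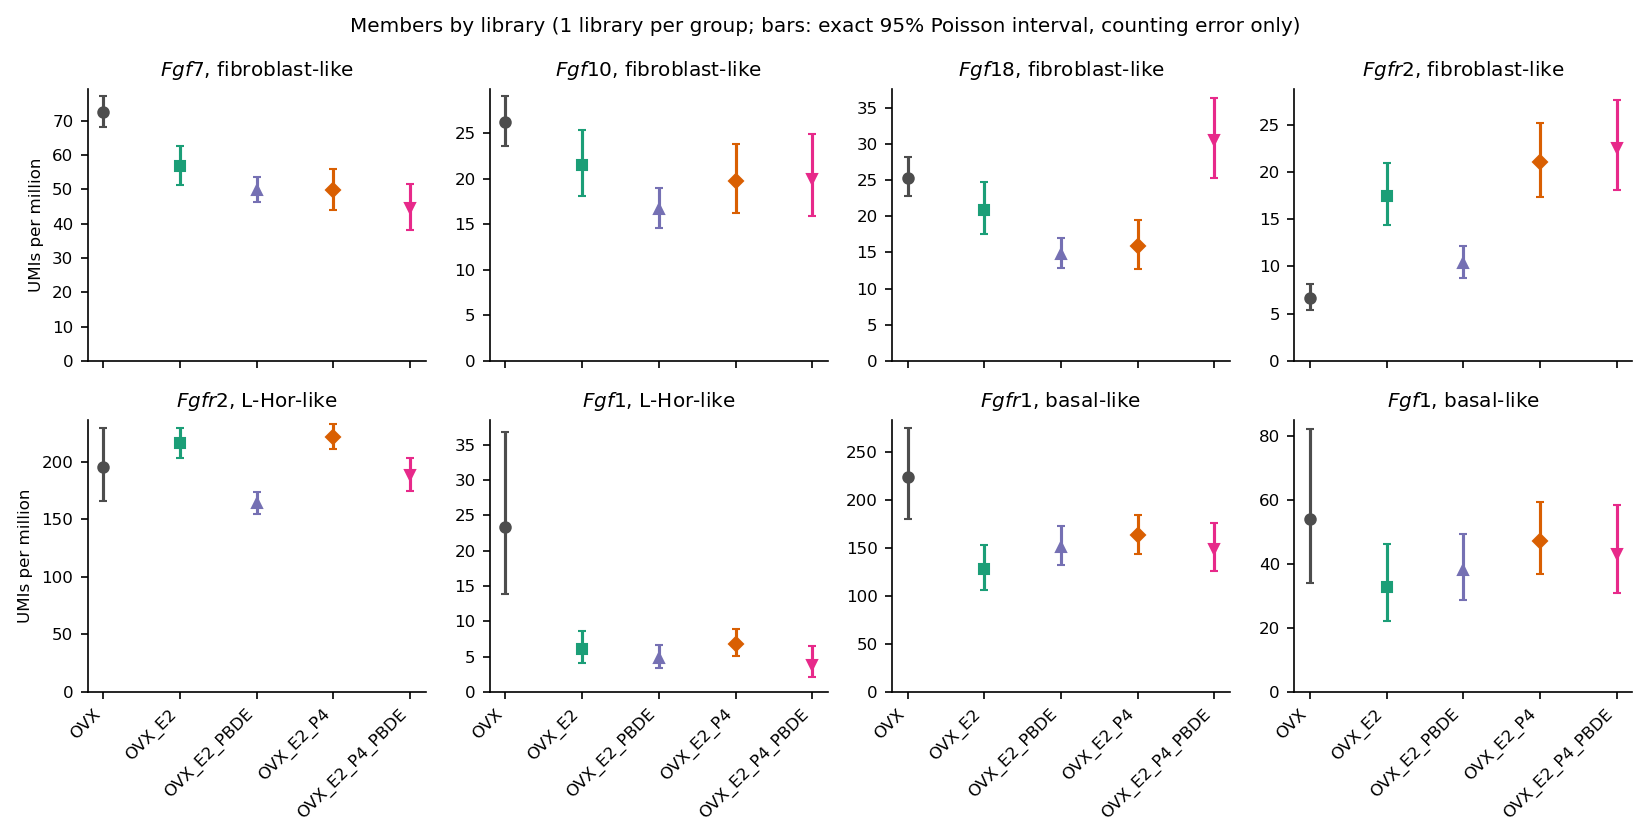
Level in CPM of Fgf1, Fgf7, Fgf10, Fgf18, Fgfr1 and Fgfr2 in single cell types by library, with exact 95% Poisson intervals that cover counting error only and 1 library per group. Fgfr2 in fibroblast-like cells is lowest in OVX at 6.62 CPM, Fgf18 is highest in OVX_E2_P4_PBDE at 30.5 CPM, and Fgf1 in L-Hor-like cells is highest in OVX at 23.3 CPM.

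The genes with the most similar patterns were ranked by Pearson's r of log2(CPM + 1) over the 39 sums of cell type and library with at least 50000 UMIs, as a description, since sums of a library share its cells and depth. The nearest gene was Mmp3 for Fgf7 (r = 0.93), Tnfaip6 for Fgf10 (0.909), Fap for Fgf18 (0.91) and Flrt2 for Fgf2 (0.868). Fgf1 was nearest to Tpm1 (0.857), Fgfr1 to Cd63 (0.886), Fgfr2 to Cdo1 (0.929) and Fgfr3 to Akap8 (0.876). Among the members themselves, Fgf2 and Fgf18 had r = 0.783, Fgf7 and Fgf10 0.78, and Fgfr2 had values of -0.365 to -0.287 with the 4 fibroblast ligands.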

How the data were processed

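The authors aligned 10x 3′ v2 reads and counted UMIs with Cell Ranger 2.0.0 on mm10, per the submitters' processing notes, and deposited filtered matrices of raw counts per gene and barcode, in whole numbers without normalization. The members and gene lists were chosen with earlier results of these data known. Barcodes needed 500 genes, 1000 UMIs and at most 10% mitochondrial UMIs. Libraries were clustered singly with Seurat 5.3.0 in R 4.3.3 on 2000 variable genes without the 69 FGF pathway genes, using 20 neighbours in 10 principal components, at resolution 0.3 (OVX) or 0.5 (the other libraries). Clusters were named from 82 markers, and 22 cells of OVX_E2_P4_PBDE stayed unnamed. Some limits of the naming were set after the clusters had been seen. Clusters came from other genes of the same cells, so the compared types are not independent of the data. Doublets were handled by keeping mixed luminal clusters apart, with Scrublet in scanpy 1.11.5 as an alternative. Proliferating clusters with the markers of both luminal lineages were not kept apart.

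UMIs were summed per library and cell type and tested with edgeR 4.0.16 (glmQLFit, TMM, filterByExpr, library as a block). DESeq2 1.42.0 was an alternative. Intervals were exact Poisson, Clopper-Pearson or conditional binomial from scipy 1.17.1, and cover counting error only. The tests were checked on simulated data. Other pathway genes named were the 4 per direction with the largest fold change between fibroblast-like and epithelial cells and the splicing factors. Fgf3, Fgf6, Fgf22, Fgfr4, Kl, Klb, Spry1, Spry2, Spry4, Spred1, Spred2, Il17rd, Etv1 and Etv4 were chosen after their values were seen. Proteins and the Fgfr1 promoter were not analysed here.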

Additional observations from a re-analysis of the deposited data

Results flagged for a closer look

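In fibroblast-like cells the Fgf18 ratio with PBDEs was 0.708 under E2 (0.568 to 0.883, on 210 and 139 UMIs) and 1.92 under E2 and P4 (1.45 to 2.56, on 122 and 89 UMIs), in opposite directions. In L-Alv-like cells the Fgfr1 ratio with PBDEs was 1.22 under E2 (1.03 to 1.44) and 0.781 under E2 and P4 (0.632 to 0.956). Each ratio rests on 1 library per group, and the difference between the ratios was not tested.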

How the results depend on the processing

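All 8 members passed in the contrast of fibroblast-like with epithelial cells under every alternative run, and no alternative reversed a sign. DESeq2 and leaving out each library were among these runs. Passing was common there too, with 4100 genes higher and 4059 lower of 12496 tested in DESeq2. Without the filter on low counts 4898 were higher and 5218 lower of 20151. Between the luminal lineages 2 members passed, Fgfr1 and Fgfr2, 4 without the filter on low counts, 5 at a mitochondrial threshold of 5%, and 2 to 5 when each library was left out (5 without OVX, 4 without OVX_E2, 4 without OVX_E2_P4_PBDE), where Fgf2, Fgfr3 or Fgf1 joined them. Of all genes tested between these lineages, 3760 were higher and 3415 lower of 18456 without the filter. These counts were 3287 and 3337 of 10662 at the mitochondrial threshold of 5%, and 3311 and 3385 of 10689 without OVX. They were 2809 and 2724 of 10138 without OVX_E2, and 2966 and 3019 of 10567 without OVX_E2_P4_PBDE. In the epithelial types 5 ratios were counted and 3 at the mitochondrial threshold of 5%, where OVX had no L-Alv-like cluster. At that threshold 329 cells of OVX_E2_P4 led by Fabp4, Sparcl1, Lpl and Mmp3, genes of endothelial cells, fat cells and fibroblasts, stayed unnamed, and the fibroblast-like ratio of Fgf10 was 0.349 for P4 and 2.66 for PBDEs under E2 and P4, and that of Fgf18 for the latter 1.34. With the names kept, an alternative added after seeing the data, 4 ratios in fibroblast-like cells and 5 in the epithelial types were counted, as in the main analysis. Without the library as a block, 8, 4 and 2 members passed in the 3 planned contrasts as with it, and 4 against 5 in the fibroblast subsets. Of all genes, those higher and lower without the block were 4169 and 4140 of 12496, 1922 and 1774 of 8512, and 2787 and 2711 of 10116. In the fibroblast subsets they were 1564 and 1505 of 10213. No paired analysis of treatments was possible because each group has 1 library. Depth limits Fgfr3, Fgf1 in fibroblasts and every value in the 32 L-Alv-like cells of OVX.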
